A study of Mus musculus with 4 samples.

Results

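The G1 cyclins and the inhibitors of cyclin-dependent kinases (CDKs) were compared between undifferentiated mouse embryonic stem cells (ESCs) and differentiating embryoid bodies. The members were the rows with the symbols Ccnd1, Ccnd2, Ccnd3, Ccne1, Cdkn2a, Cdkn2b, Cdkn2c, Cdkn2d, Cdkn1a and Cdkn1b, which are 10 of the 24421 genes counted. The 4 Illumina TruSeq libraries, with 2 biological replicates of each state, came from R1, a single established ESC line, so that both states share its genotype. For Undiff, the methods describe R1 cells held undifferentiated with leukaemia inhibitory factor, whereas the sample labels call the material embryoid bodies. For Day4, cells aggregated into embryoid bodies were kept for 4 days without that factor, followed by 4 days of retinoic acid (RA), a metabolite of vitamin A; the paper states a dose of 2 µM and the labels state 2 mM. The states therefore differ in leukaemia inhibitory factor, in aggregation (if Undiff is as in the methods), in time in culture and in RA. The parts of these cannot be told apart here. Embryoid bodies hold a mixture of cell types, and in bulk RNA fewer cells of a type and less RNA per cell cannot be told apart.

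D-type cyclins bind the kinases Cdk4 and Cdk6, and E-type cyclins bind Cdk2; the active kinases phosphorylate the retinoblastoma protein and its relatives, which releases E2F factors to transcribe the genes of DNA replication. The INK4 proteins (Cdkn2a to Cdkn2d) bind Cdk4 and Cdk6 and keep the D-type cyclins off them, whereas the CIP/KIP proteins (Cdkn1a, Cdkn1b and Cdkn1c) bind whole cyclin-CDK complexes and block those of Cdk2 in particular. Mouse ESCs are known for a short G1 phase with high cyclin E and little inhibitor, and for a longer G1 phase once they differentiate. All values below are RNA levels, and neither protein nor cell cycle phase was measured.

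Between 32099074 and 47730944 fragments per library were counted on genes, and replicates of a state differed by more than sampling noise. Fragments that fell in no gene made up between 12.1% and 13.2% of the Undiff libraries and between 7.50% and 7.74% of the Day4 libraries. Genes were tested with edgeR, and a differentially expressed gene (DEG) had a Benjamini-Hochberg adjusted p-value of at most 0.05, a mean of 5 normalized counts or more and a log2 fold change of at least 1 in either direction. "Rose" and "fell" are used for DEGs. Normalized counts are counts scaled to a common library size.

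Promoter windows from RefSeq on GRCm38.p6, each with 250 bases before a transcription start and 50 after it, matched 8 of the 10 members by symbol with 12 windows in all; Ccnd1 and Ccnd2 were not matched. The 4 windows printed here belong to the G1 cyclin that fell most, to the inhibitor among the members that rose most, and to Cdkn2a, whose 2 starts give unrelated proteins. Capitals mark a match to E2F letters (TTTGGCGC, TTTCCCGC, TTTCGCGC or TTTGCCGC on either strand, none of which holds another).
Cdkn2a, distal start of the p19Arf transcript, minus strand of chr4:89294570-89294869: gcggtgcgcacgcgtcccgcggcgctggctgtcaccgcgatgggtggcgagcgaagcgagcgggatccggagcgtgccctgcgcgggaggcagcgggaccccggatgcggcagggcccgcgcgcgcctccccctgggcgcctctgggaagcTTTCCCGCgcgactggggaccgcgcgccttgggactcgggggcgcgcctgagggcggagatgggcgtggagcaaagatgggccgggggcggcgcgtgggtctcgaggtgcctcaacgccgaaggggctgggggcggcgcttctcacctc
Cdkn2a, proximal start of the p16Ink4a transcript, minus strand of chr4:89282143-89282442: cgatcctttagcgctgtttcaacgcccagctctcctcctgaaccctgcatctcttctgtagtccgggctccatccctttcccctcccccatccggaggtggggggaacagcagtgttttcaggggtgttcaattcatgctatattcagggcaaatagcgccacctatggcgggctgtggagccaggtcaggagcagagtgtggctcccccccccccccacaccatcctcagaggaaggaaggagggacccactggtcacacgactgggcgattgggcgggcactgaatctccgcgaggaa
Cdkn2c, upstream of its 2 starts, minus strand of chr4:109666707-109667006: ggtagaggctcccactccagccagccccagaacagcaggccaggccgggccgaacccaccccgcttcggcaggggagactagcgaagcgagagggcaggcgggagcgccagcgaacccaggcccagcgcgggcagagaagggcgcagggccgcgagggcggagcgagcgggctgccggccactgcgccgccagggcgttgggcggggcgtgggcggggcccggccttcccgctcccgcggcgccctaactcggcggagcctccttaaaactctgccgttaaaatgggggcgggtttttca
Ccne1, minus strand of chr7:38107441-38107740: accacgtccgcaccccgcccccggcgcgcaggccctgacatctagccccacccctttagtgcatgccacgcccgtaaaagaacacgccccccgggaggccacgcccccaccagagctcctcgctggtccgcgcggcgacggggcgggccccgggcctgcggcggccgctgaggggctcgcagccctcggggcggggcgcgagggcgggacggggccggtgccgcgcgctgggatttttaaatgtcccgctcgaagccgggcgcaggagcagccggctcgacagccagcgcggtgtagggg
The distal Cdkn2a window held 45 CpG dinucleotides and the proximal one 12, beside a median of 7 over all 32851 windows (lower quartile 3, upper quartile 20). The Ccne1 window held 41. Cdkn2c also has 2 windows, of which the upstream one printed here held 33 and the other, on chr4:109665323-109665622, held 8. The match in the distal Cdkn2a window, TTTCCCGC, began 99 bases before the start, and it was the 1 window of the members' 12 that held any of the letters, against 2.26% of all windows. A match is a description of letters and not a measured binding site.

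Of the 10 members, 6 rose in Day4 (Ccnd2, Ccnd3, Cdkn2a, Cdkn2c, Cdkn2d and Cdkn1b), 2 fell (Ccnd1 and Ccne1), and Cdkn2b and Cdkn1a were not DEGs. Among the 19891 genes tested, 22.2% were DEGs that rose and 20.6% were DEGs that fell. Every inhibitor that was a DEG rose, and the 4 cyclins split evenly between the directions. The Day4 libraries lay above both Undiff libraries for 8 members and below both for 2, so that no member overlapped between the states; over all genes tested, 42.7% lay above and 42.7% below in the same way. All 10 members had a mean normalized count above 5.

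**Figure D1:**
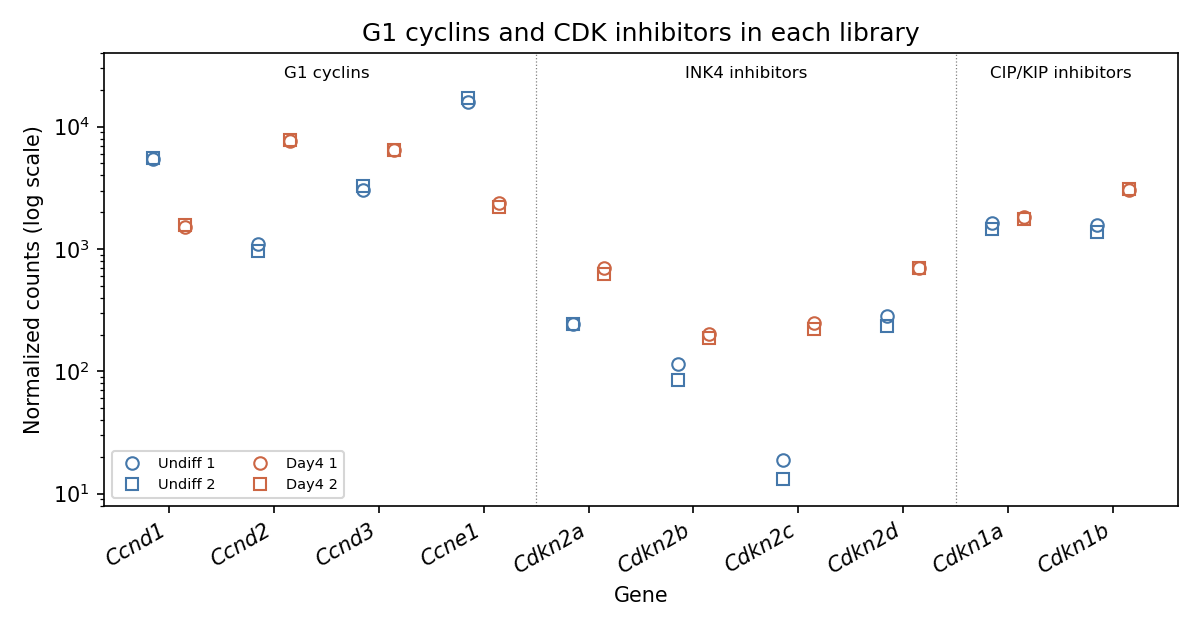
Normalized counts (log scale) of the 10 members in each of the 4 libraries, with circles for replicate 1 and squares for replicate 2, Undiff in blue and Day4 in orange. Ccnd1 and Ccne1 sit lower in Day4 and the other 8 members higher, with the widest gaps for Cdkn2c, Ccnd2 and Ccne1 and the narrowest for Cdkn1a.

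The D-type cyclins changed in opposite directions. Ccnd1 (chr7:144929931-144939925, minus strand, GENCODE vM21 on GRCm38), the D-type cyclin best known as a target of growth factor signalling, had 5463 and 5494 normalized counts in Undiff and 1499 and 1557 in Day4. Both Day4 libraries lay far below Undiff, and the replicates of each state were close. Ccnd1 fell by 1.84 on the log2 scale (SE 0.05; edgeR, adjusted p = 6.4e-13), so that Undiff was 3.58-fold higher. Ccnd2 (chr6:127125162-127152193, minus strand), a D-type cyclin with prominent roles in gonad, blood and neural progenitors, had 1089 and 962 normalized counts in Undiff and 7565 and 7838 in Day4. All counts of Day4 were above those of Undiff by a wide margin. Ccnd2 rose 7.50-fold (log2 fold change 2.91, SE 0.06; edgeR, adjusted p = 6.4e-14). The ratio of Ccnd1 to Ccnd2 per kilobase of exon went from 9.00 and 10.2 in the Undiff libraries to 0.356 and 0.356 in the Day4 libraries.

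Ccnd3 (chr17:47505051-47599691, plus strand), known as the most broadly expressed D-type cyclin, had 3052 and 3263 normalized counts in Undiff and 6431 and 6462 in Day4. Both Day4 libraries were above Undiff and almost equal to each other. Its rise was 2.04-fold (log2 fold change 1.03, SE 0.05; edgeR, adjusted p = 1.7e-10) and stood at the edge of the fold change threshold: the log2 fold change was 0.99 in DESeq2, 0.98 without Undiff replicate 1 and 0.996 without Day4 replicate 2. Tested against a fold change of 2 (glmTreat in edgeR), Ccnd3 had an adjusted p of 0.22.

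Some D-type cyclin exons lie on the opposite strand of another gene. The gene counting took each sample's strandedness into account. The methods name just the Direct RNA libraries as counted by strand on genes, without giving the option for TruSeq. For exons, the paper counted TruSeq without strand. Counted without strand, fragments in shared bases cannot be told apart and are set aside as ambiguous, so they would be missing from both genes. Levels per length were not corrected for such a loss. Ambiguous fragments made up between 1.84% and 1.91% of each library. Ccnd3 shares 361 bases of exon with Bysl, a ribosome assembly factor, which had 3302 and 3531 normalized counts in Undiff and 1727 and 1655 in Day4 (log2 fold change -1.02). Bysl moved against Ccnd3. Ccnd2 shares 368 bases with 9330179D12Rik, which was at 0 counts in both Undiff libraries and at 8.36 and 6.91 normalized counts in Day4. Ccnd1 shares 1100 bases with the gene counted as Oraov1 (LTO1 in the annotation), which had 479 and 487 normalized counts in Undiff and 960 and 865 in Day4. Its Day4 values were above Undiff, opposite to Ccnd1.

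Between genes, levels were compared only per length, as FPKM (fragments per kilobase of protein-coding exon scaled to library size with TMM factors). Ccnd1 stood at 39.1 ± 0.160 FPKM in Undiff (mean ± SD, n = 2) and 10.9 ± 0.288 in Day4. The level of Ccnd2 was 4.08 ± 0.357 FPKM in Undiff and 30.7 ± 0.755 in Day4. For Ccnd3 it was 34.5 ± 1.63 FPKM in Undiff and 70.4 ± 0.207 in Day4. Thus Ccnd2 was lowest of the 3 in Undiff and Ccnd1 lowest in Day4, in every library.

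The D-type cyclins summed to 76.7 and 78.7 FPKM in the Undiff libraries and to 111 and 113 in the Day4 libraries, which is 1.44-fold higher in Day4. Ccnd1 made up 50.9% and 49.9% of the sum in Undiff and 9.64% and 9.85% in Day4. The share of Ccnd2 was 5.65% and 4.87% in Undiff and 27.1% and 27.6% in Day4. Ccnd3 held 43.5% and 45.3% in Undiff and 63.2% and 62.5% in Day4. The states did not overlap for any of the 3 shares; the exact permutation test of 2 against 2 libraries (two-sided) gave p = 0.333 for each, the smallest value that this design allows. The order of Ccnd3 and Ccnd2 in Day4 depends on the length: with the exons of all annotated transcripts, Ccnd3 stood at 19.6 FPKM and Ccnd2 at 21.9 in Day4, and in Undiff Ccnd3 stood at 9.61 beside 31.1 for Ccnd1.

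**Figure D2:**
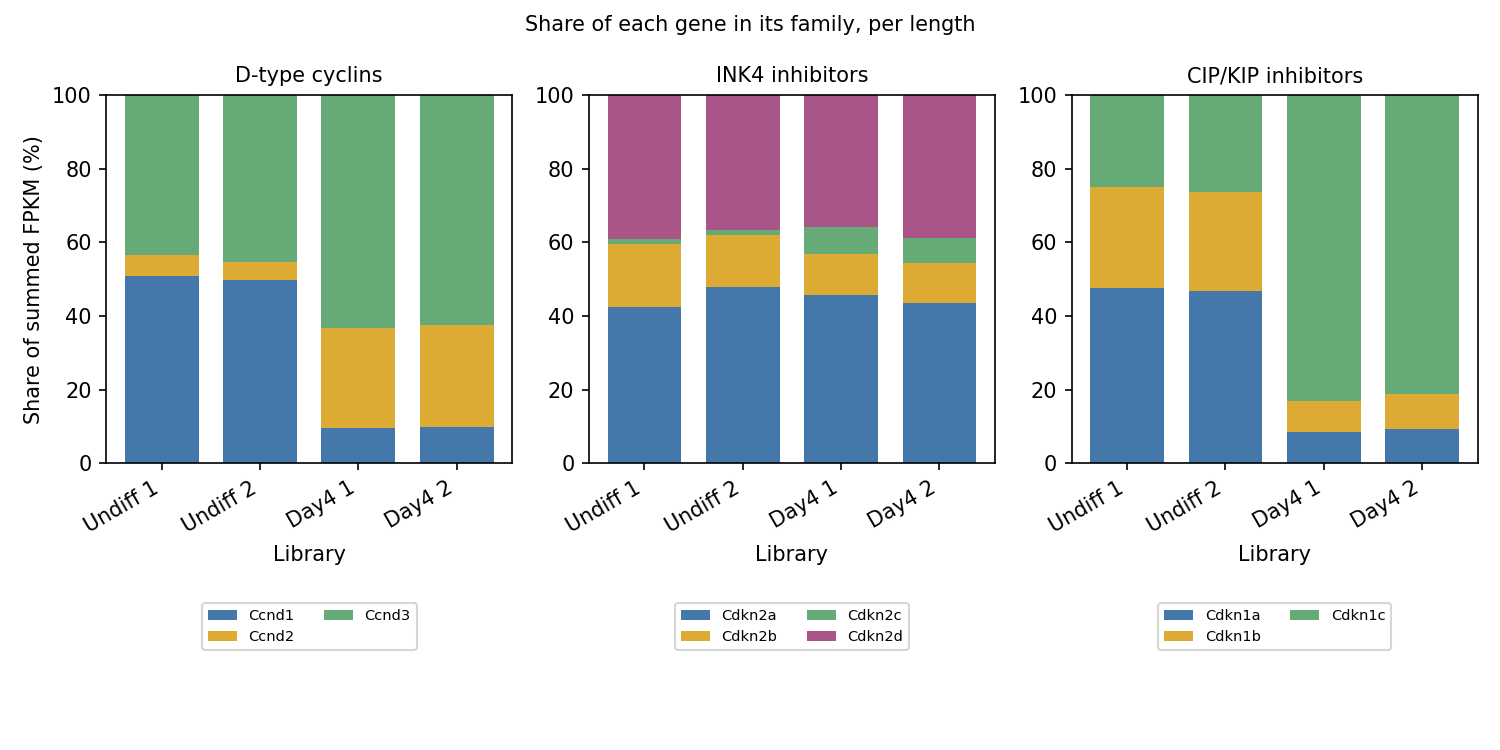
Share (%) of each gene in the summed FPKM of its family in each of the 4 libraries, for D-type cyclins, INK4 inhibitors and CIP/KIP inhibitors (with Cdkn1c, which is no member). Ccnd1 takes up 49.9% or more of the D-type sum in Undiff and 9.85% or less in Day4, the INK4 bars keep a like layout apart from Cdkn2c and Cdkn2b, and Cdkn1c fills 81.2% or more of the CIP/KIP bars in Day4.

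Ccne1 (chr7:38097984-38107534, minus strand), the cyclin that activates Cdk2 at the entry into S phase and whose promoter window is printed above, had the largest fall of the members. It had 15885 and 17048 normalized counts in Undiff and 2370 and 2217 in Day4. The lowest Undiff library was several times the highest Day4 library. Ccne1 fell by 2.85 on the log2 scale (SE 0.05; edgeR, adjusted p = 2.3e-14), with Undiff 7.19-fold higher. Per length, it stood at 220 ± 11.0 FPKM in Undiff and 30.6 ± 1.46 in Day4 (mean ± SD, n = 2). Set against the sum of the D-type cyclins, Ccne1 was at a ratio of 2.77 and 2.89 in the Undiff libraries and of 0.285 and 0.262 in the Day4 libraries. The level of Ccne1 was above the D-type sum in both Undiff libraries and below it in both Day4 libraries. The D-type cyclins and Ccne1 together summed to 289 and 306 FPKM in Undiff and to 143 and 142 in Day4.

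Its paralog Ccne2, which also activates Cdk2, had 516 and 603 normalized counts in Undiff and 489 and 460 in Day4, for a log2 fold change of -0.24 (SE 0.09; edgeR, adjusted p = 0.029), and was not a DEG. Ccne1 exceeded Ccne2 per length by 49.3-fold and 45.2-fold in the Undiff libraries and by 7.76-fold and 7.71-fold in the Day4 libraries.

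Of the 4 INK4 genes, 3 rose and Cdkn2b stayed just under the fold change threshold, with a median log2 fold change of 1.43 beside -0.03 over all genes tested. Cdkn2a (chr4:89274471-89294653, minus strand) encodes p16Ink4a, which inhibits Cdk4 and Cdk6, and from its distal start p19Arf, which holds back Mdm2 and so stabilises p53. Its counts per symbol merge both transcripts, whose promoter windows are printed above. Cdkn2a had 246 and 242 normalized counts in Undiff and 702 and 623 in Day4. Each Day4 library exceeded both Undiff libraries. Cdkn2a rose 2.70-fold (log2 fold change 1.43, SE 0.09; edgeR, adjusted p = 8.4e-09), without a split between p16Ink4a and p19Arf.

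Cdkn2b (chr4:89306299-89311039, minus strand) encodes p15Ink4b, an inhibitor known to respond to transforming growth factor beta, and lies upstream of Cdkn2a on the same strand, with 11645 bases between the genes and no shared exon. It had 116 and 85.0 normalized counts in Undiff and 204 and 187 in Day4. Day4 was above Undiff in each pair of libraries, and the Undiff replicates were further apart, relative to their mean, than those of Cdkn2a. The log2 fold change was 0.94 (SE 0.16; edgeR, adjusted p = 9.5e-05), under the threshold of 1. It reached 1.00 with library totals in place of TMM and 1.19 without Undiff replicate 1, and it was 0.75 without Undiff replicate 2.

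Cdkn2c (chr4:109660876-109667189, minus strand), which encodes p18Ink4c, was the member with the largest rise. It had 18.8 and 13.2 normalized counts in Undiff, from 18 and 11 counted fragments, and 251 and 220 in Day4. The few fragments in Undiff limit the precision of the fold change, although both libraries lay far below Day4. Cdkn2c rose 14.4-fold (log2 fold change 3.84, SE 0.22; edgeR, adjusted p = 1.5e-09). Its standard error was the largest of the 10 members.

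Cdkn2d (chr9:21288410-21291407, minus strand), which encodes p19Ink4d and, despite the like name, is distinct from p19Arf, had 284 and 233 normalized counts in Undiff and 694 and 699 in Day4. The Day4 libraries were nearly equal and both above Undiff. Cdkn2d rose 2.68-fold (log2 fold change 1.42, SE 0.09; edgeR, adjusted p = 9.3e-09), which is close to the change of Cdkn2a.

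Per length, the INK4 genes summed to 13.2 and 11.5 FPKM in Undiff and to 35.0 and 32.6 in Day4, 2.74-fold higher in Day4. The sum takes in all counts of Cdkn2a, in which p16Ink4a and p19Arf are merged. Cdkn2a held 42.6% and 47.9% of the sum in Undiff and 45.8% and 43.5% in Day4, and Cdkn2d held 39.1% and 36.8% in Undiff and 35.9% and 38.8% in Day4. For these 2 genes the shares of the states overlapped (exact permutation test, two-sided, p = 1 and p = 0.667). Cdkn2c went from 1.42% and 1.14% to 7.13% and 6.71%, and Cdkn2b from 16.9% and 14.2% to 11.2% and 11.0%. Neither overlapped between the states (exact permutation test, two-sided, p = 0.333 for each, the smallest possible).

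The targets of the INK4 proteins, Cdk4 and Cdk6, moved apart. Cdk4 had 12931 and 12834 normalized counts in Undiff and 29413 and 28985 in Day4, and rose 2.27-fold (log2 fold change 1.18, SE 0.04; edgeR, adjusted p = 3.5e-12). Cdk6 had 765 and 727 normalized counts in Undiff and 261 and 267 in Day4, and fell by 1.50 on the log2 scale (SE 0.08; edgeR, adjusted p = 1.1e-09). Cdk4 made up 99.0% of the pair per length in both Undiff libraries and 99.8% in both Day4 libraries. With Cdk4 and the INK4 genes both higher in Day4, the INK4 sum was 7.74% and 6.82% of the sum of Cdk4 and Cdk6 in Undiff and 9.12% and 8.64% in Day4. This ratio of RNA levels was 1.22-fold higher in Day4, compared with 2.74-fold for the INK4 sum itself. Because Cdkn2a counts are merged, an unknown part of the INK4 sum may be p19Arf, which is not an inhibitor of these kinases.

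Of the CIP/KIP members, 1 rose and 1 did not pass. Cdkn1a (chr17:29090976-29100727, plus strand), which encodes p21 and is the classic transcriptional target of p53, had 1636 and 1453 normalized counts in Undiff and 1811 and 1768 in Day4. The Day4 libraries were above Undiff, but the gap between the states was smaller than the distance between the Undiff replicates. The log2 fold change was 0.21 (SE 0.06; edgeR, adjusted p = 0.0081), far under the fold change threshold, and without Undiff replicate 2 it was 0.13 (edgeR, adjusted p = 0.057). DESeq2 gave 0.17 (adjusted p = 0.071). Cdkn1b (chr6:134920401-134925513, plus strand), which encodes p27, an inhibitor tied to exit from the cell cycle, had 1585 and 1381 normalized counts in Undiff and 3039 and 3083 in Day4. All Day4 values were above those of Undiff. Cdkn1b rose 2.06-fold (log2 fold change 1.04, SE 0.06; edgeR, adjusted p = 2.9e-09), at the edge of the threshold: the log2 fold change was 0.95 without Undiff replicate 2, and the adjusted p against a fold change of 2 was 0.21 (glmTreat in edgeR).

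The third CIP/KIP gene, Cdkn1c (chr7:143458339-143461050, minus strand), which encodes p57 and is imprinted in mice, is no member but had a larger fold change than any of them. It had 616 and 585 normalized counts in Undiff and 12785 and 11156 in Day4, and rose 19.9-fold (log2 fold change 4.31, SE 0.07; edgeR, adjusted p = 1.4e-14). Cdkn1a and Cdkn1b summed to 25.4 and 22.4 FPKM in Undiff and to 35.6 and 35.5 in Day4. With Cdkn1c the sums were 33.9 and 30.4 in Undiff and 212 and 189 in Day4. Cdkn1a thus went from 47.5% and 46.9% of the family to 8.42% and 9.20%, although its own count was not lower in Day4.

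**Figure D3:**
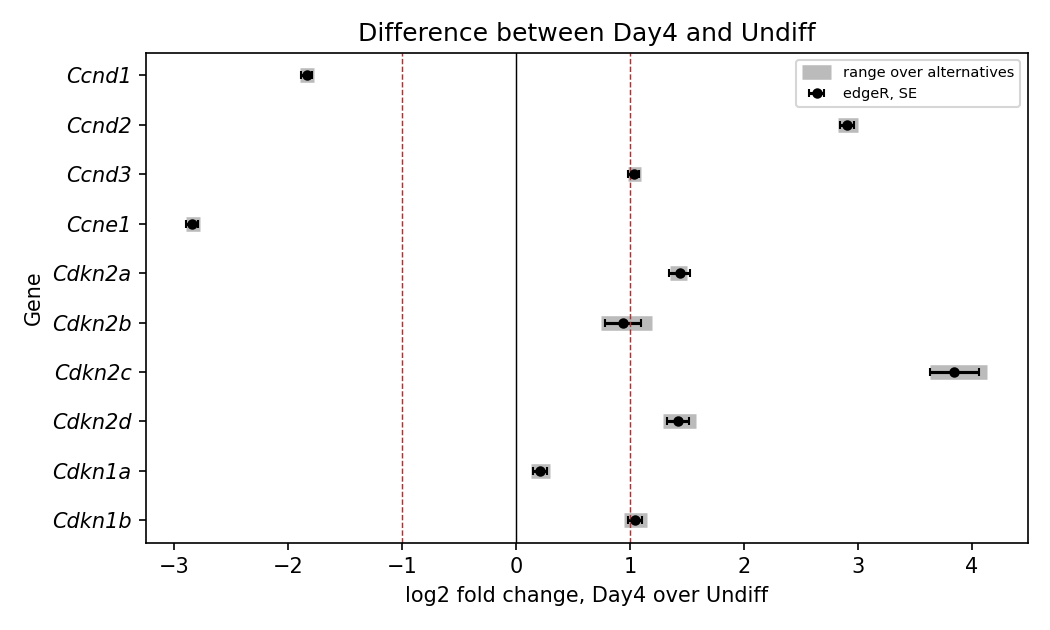
log2 fold change (Day4 over Undiff) of each member from edgeR, with its standard error, on a grey bar that spans its values over 13 alternatives. Of these, 11 refit the fold change. Dashed lines mark a log2 fold change of 1 in either direction. Ccnd1 and Ccne1 lie on the negative side, Ccnd3, Cdkn1b and Cdkn2b straddle the line at 1, and Cdkn2c has the widest bar of those that rose.

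The other genes of the pathway came from lists of 60 genes, of which 6 rose and 15 fell. Over all genes tested, 22.2% rose and 20.6% fell, and the counts of each list below stand beside these shares. The first list held 7 genes, Cdkn1c and 6 kinases and other cyclins of G1 and S. Of these, Cdk4 and Cdkn1c rose, Cdk6 and Ccna1 fell and 3 were not DEGs. The median log2 fold change was -0.24 over the 7 genes and -0.47 without Cdkn1c. The call for Ccna1, a cyclin best known from the germ line, was lost in 7 of 13 alternatives: its log2 fold change was -1.06 (edgeR, adjusted p = 0.020), but -0.34 without Undiff replicate 1 and -0.96 without Day4 replicate 1 (edgeR, adjusted p = 0.050), and DESeq2 gave an adjusted p of 0.088. Cdk2, the partner of cyclin E, had a log2 fold change of -0.15, and Ccna2, the cyclin that takes over Cdk2 in S phase, one of -0.71. The 3 genes of the CDK-activating kinase, Cdk7, Ccnh and Mnat1, were not DEGs and had a median of 0.04.

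Of the pocket proteins, the substrates of the cyclin D kinases, Rbl2 (p130) rose, from 479 and 422 normalized counts in Undiff to 1494 and 1442 in Day4 (log2 fold change 1.70, SE 0.07; edgeR, adjusted p = 9.2e-11). Rb1 had a log2 fold change of -0.47 and Rbl1 (p107) one of 0.57, and neither was a DEG. The Day4 libraries lay above Undiff for Rbl2 and Rbl1 and below for Rb1. Per length, Rb1 and Rbl1 were above Rbl2 in Undiff, at 5.70, 6.02 and 2.45 FPKM, and in Day4 Rbl2 stood at 7.96 FPKM, between Rbl1 at 8.94 and Rb1 at 4.13.

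Among 10 E2F and DP factors, 1 rose, 1 fell and 8 were not DEGs, with a median log2 fold change of -0.64. E2f6, a repressor that acts without the pocket proteins, rose (log2 fold change 1.44, SE 0.05; edgeR, adjusted p = 2.2e-11), and E2f8, an atypical repressor, fell (log2 fold change -1.52, SE 0.07; edgeR, adjusted p = 3.3e-10). Of the activators, E2f1 had a log2 fold change of -0.60, E2f2 one of -0.68 and E2f3 one of -0.01. E2f4 was at -0.72, E2f5 at 0.52 and E2f7 at -0.92. Among 6 genes that degrade or activate the members and their complexes, Fbxo4, named as a ligase component for cyclin D1, rose (log2 fold change 1.61), and the other 5, among them Skp2, which targets p27, and Fbxw7, which targets cyclin E, were not DEGs.

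The p53 list, which holds p53, its regulators Mdm2 and Mdm4 and targets of p53 other than Cdkn1a, had 11 genes, of which 1 rose, 3 fell and 7 were not DEGs, with a median log2 fold change of -0.57. Trp53 itself had 12005 and 13412 normalized counts in Undiff and 8806 and 8896 in Day4, a log2 fold change of -0.52. Mdm2, its ligase and transcriptional target, was at -0.91, and neither was a DEG. Mdm4, a partner of Mdm2, fell most (log2 fold change -1.08), beside Sesn2 at -1.06 and Aen at -1.01, and Sesn1 rose (log2 fold change 1.79). Sesn2 and Aen were at the edge of the threshold like Ccnd3.

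Of 10 replication genes that E2F factors are known to drive, 4 fell (Mcm3, Mcm5, Rrm2 and Cdc6) and none rose, with a median log2 fold change of -0.93 and Rrm2 lowest at -1.22. Their summed normalized counts were 151284 and 148482 in Undiff and 78314 and 80911 in Day4. Of 10 mitosis genes, 5 fell and none rose, with a median of -1.14 and Ccnb1, the cyclin of the mitotic kinase, lowest at -1.69. The proliferation marker Mki67 had a log2 fold change of -0.72 and was not a DEG. These lists and the members were compared in the same 4 libraries. How far the share of cycling cells enters the members' values was not tested.

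**Figure D4:**
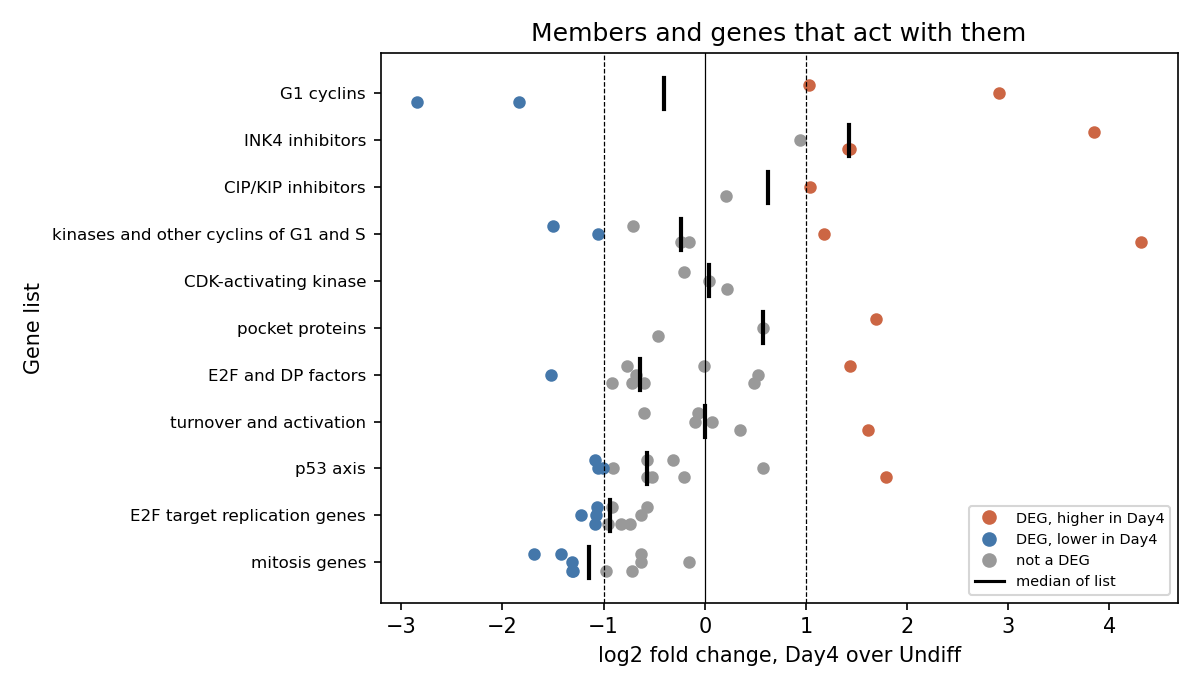
log2 fold change (Day4 over Undiff) of the members, in the top 3 rows, and of 60 genes that act with them, by list (Cdkn1c is plotted with the kinases and other cyclins); each point is a gene, orange for DEGs that rose, blue for DEGs that fell and grey for the rest, with the median of each list as a black bar. The inhibitors lie to the right of 0 and the replication and mitosis lists to the left of it, with medians of -0.93 and -1.14.

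Cell type markers differed between the states as well. Of 8 markers of pluripotent cells, all 8 fell, and their summed normalized counts were 180576 and 181579 in Undiff and 752 and 566 in Day4. All 8 genes of the RA response list rose, from 493 and 520 to 35354 and 35304 in sum. Fibroblast markers rose in 7 of 8 cases, from sums of 2594 and 2440 to sums of 69796 and 64157, while Thy1 fell. Of 6 endoderm markers all 6 rose, with Afp at 0 counts in both Undiff libraries; of 6 mesoderm and muscle markers 4 rose and 2 fell; and of 6 neural markers 2 rose and 2 fell. The part of these cell types in the members' differences was not tested.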

How the data were processed

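RNA of Undiff and Day4 samples from the R1 line was sequenced as Illumina TruSeq libraries, 2 per state, grouped by the sample titles. According to the paper and the labels, the authors used cutadapt for trimming, STAR 2.4.2a for alignment to mm10 and HTSeq to count uniquely aligned fragments per gene. The deposited values are counts, whole numbers per gene symbol without normalization. Summary lines of fragments in no gene (7.50% to 13.2%) and of ambiguous fragments (1.84% to 1.91%) were left out. The methods say that gene counting considered the strandedness of samples and name just Direct RNA as counted by strand.

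TMM factors and the quasi-likelihood test of edgeR 4.0.16 (glmQLFTest, after glmQLFit without the legacy option) were used in R 4.3.3, with Benjamini-Hochberg adjustment over all 19891 genes with a count. The DEG thresholds are those of the paper. On simulated counts of 19511 genes, the fit recovered 200 of 200 changed genes with 0 false calls. With these counts, the calling of the members was not tested. That holds for those near the fold change threshold (Ccnd3, Cdkn1b and Cdkn2b) and for the others, among them Ccnd1, Cdkn2a and Cdkn2d. FPKM and the shared exon bases used exons of GENCODE vM21. The paper counted genes with an mm10 annotation from iGenomes UCSC, whose exons may differ from these. Libraries held 32099074 to 47730944 counts, so that 3 counts are 0.0629 to 0.0935 CPM, which covers counting error only.

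The members and lists were chosen with earlier results of these data known. Named genes were all 10 members, their direct partners, and the DEGs with the highest and lowest log2 fold change of each list; other genes (Mki67, Skp2, Fbxw7, those named in a list's count and those under the closing heading) were added after their values were seen. Alternatives were DESeq2 1.42.0 with and without shrinkage, DESeq2 size factors, library totals, filterByExpr, a replicate block, the legacy fit, no minimum fold change, glmTreat, other lengths and leaving out each library. A planned comparison of protein sequences was not run.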

Additional observations from a re-analysis of the deposited data

How the results depend on the processing

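All 10 members kept their direction in the 110 values under the 11 alternatives that refit the fold change in edgeR or DESeq2. The legacy fit, and the other exon lengths used for shares and sums, were chosen after seeing the data. The count of members that rose was 6, and it was 5 with DESeq2, with DESeq2 size factors and with filterByExpr, where Ccnd3 was at a log2 fold change of 0.99, 0.99 and 0.999. It was 7 with library totals, 8 with no minimum fold change, 4 against a fold change of 2 (glmTreat) and between 5 and 6 when a library was left out; 2 fell throughout. With no minimum fold change, 12 pathway genes were higher and 43 lower, and 7305 and 7004 of all genes. Not dividing by length moved the difference in share to -47.0 percentage points for Ccnd1, 38.5 for Ccnd2, 8.45 for Ccnd3, 10.6 for Cdkn2c and -2.79 for Cdkn2d (-40.6, 22.1, 18.5, 5.64 and -0.58 as reported). With exons of all transcripts it was -54.0 for Ccnd1, 36.9 for Ccnd2 and 17.1 for Ccnd3. The D-type sum in Day4 over Undiff was then 1.62 without lengths and 1.15 with all transcripts, and that with Ccne1 was 0.688 and 0.350 (0.479 as reported). Near 0, signs turned for E2f3 (0.054 with library totals; -0.092 to 0.068 with a library left out), Fbxw7 (0.0042; -0.16 to 0.019) and Ccnh (-0.025 to 0.11 with a library left out). The cause of these changes was not tested.

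Undiff and Day4 share replicate numbers, and deviations of same-numbered libraries had a correlation of -0.01. That value gives no sign of a deviation shared by same-numbered libraries, but it cannot show that none exists. With 2 libraries per state it cannot tell whether they were grown or prepared together. With the replicate block, 6 members rose and 2 fell, with Ccnd3 at a log2 fold change of 1.03 and Cdkn1b at 1.05, and 14 pathway genes fell in place of 15.

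With 2 libraries per state, exact permutation tests of shares cannot reach 0.05. Precision is lowest for Cdkn2c, which rests on 18 and 11 fragments in Undiff.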

Other observations

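Of 14 genes known to regulate the Cdkn2a and Cdkn2b locus, listed after the members' values were seen, 8 rose, 1 fell and 5 were not DEGs in edgeR, with a median log2 fold change of 1.46. For comparison with this list and the next, 22.2% of all genes tested rose and 20.6% fell. The 14 genes include some on both sides of that control. Among the Polycomb genes that are known to repress the locus, Bmi1 had 187 and 156 normalized counts in Undiff and 1925 and 1990 in Day4 (log2 fold change 3.51). Cbx8 had 18.8 and 19.1 in Undiff and 384 and 326 in Day4 (4.21), and Cbx2 was at 1217 and 1260 against 5174 and 5165 (2.06). Cbx7 moved the other way, from 7894 and 7862 to 406 and 361 (log2 fold change -4.37), and Ezh2 was at -0.73 and not a DEG. The T-box repressors of p19Arf rose, Tbx2 from 6.25 and 12.0 to 4900 and 4555 (log2 fold change 9.03) and Tbx3 by 1.31. Of genes known as activators of the locus, Kdm6b, a histone H3 lysine demethylase, rose (log2 fold change 2.36), as did Ets1 (3.91) and Ets2 (1.62), whereas Dmtf1, an activator of p19Arf, was at 4021 and 3977 in Undiff and 3028 and 3186 in Day4 (log2 fold change -0.36) and was not a DEG. Cdkn2a rose in the same libraries, and no link to any of these genes was tested.

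A second list, also made after the members' values were seen, held 11 forkhead factors and antiproliferative genes, of which 4 rose, 2 fell and 5 were not DEGs, with a median log2 fold change of -0.07. Foxo3, a forkhead factor known to drive Cdkn1b, had 436 and 330 normalized counts in Undiff and 1466 and 1473 in Day4 (log2 fold change 1.93), whereas Foxo1 was at -0.41 and Foxo4 at -0.07. Ccng2, an unconventional cyclin of arrested cells, rose by 1.81 on the log2 scale, and Gas1, named for growth arrest, went from 59.4 and 65.8 to 12880 and 11390 (7.60). Klf4, a pluripotency factor known to act on Cdkn1a, fell by 3.07 on the log2 scale and Gadd45a, a p53 target, fell by 1.88.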
